A study of Mus musculus with 41 samples.

Results

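The collagen genes of the mouse were followed through ribosome footprints and mRNA of tissues and cells that lack a ribosome rescue factor or carry a deletion allele of the decay factor gene Upf2. A gene was taken as a member when a protein-coding transcript in the deposited RNA tables carries a symbol made of Col, a number, the letter a and a number, and its gene identifier was then looked up in the footprint tables. This gave 44 collagen genes of 22438 genes with footprint counts, all of which are in both kinds of table, and the 44 genes have 227 of the 142552 transcripts in the RNA tables. Within the tables, their symbols alone made them members.

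There were 30 footprint libraries and 11 RNA libraries. Whole C57BL/6NJ embryos at embryonic day 8.5, pooled per library, were Hbs1l -/- (n = 3) or wild type (n = 3). Cerebella of C57BL/6J mice at postnatal day 14, from 1 mouse each, were Atoh1-Cre;Hbs1l cKO (n = 3) or Atoh1-Cre;Hbs1l +/+ (n = 3), where Atoh1-Cre is active in granule cells and not in the fibroblasts or vessels of the tissue. Mouse embryonic fibroblasts (MEFs) on a C57BL/6 background carried the tamoxifen-inducible CAG-Cre ER transgene, alone in controls or with a floxed (cKO) allele of Hbs1l, Pelo or Upf2, and cells of every genotype, controls included, received tamoxifen. Each MEF footprint set had 3 mutant and 3 control libraries. The MEF RNA libraries, made from other dishes, were 3 Hbs1l cKO, 2 Pelo cKO, 3 Upf2 cKO and 3 controls, and a further Pelo RNA sample had been left out by the authors as an outlier. Hbs1l and Pelo encode the paired factors that release stalled ribosomes, and Upf2 encodes a factor of nonsense-mediated mRNA decay.

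Collagens are the main structural proteins of the extracellular matrix. Each chain carries a repeat of glycine followed by any pair of residues, often prolines, and chains wind into a triple helix in the endoplasmic reticulum after their prolines and lysines are hydroxylated. Fibrillar collagens (types I, II, III, V and XI) build fibrils, type IV builds the sheet of the basement membrane, types VIII and X build hexagonal networks, type VI builds beaded microfibrils, and the FACIT collagens (such as types IX, XII and XIV) sit on the surface of fibrils. In connective tissue, fibroblasts are the main producers, and cartilage uses types II, IX, X and XI instead.

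The repeat is visible in the coding sequence. In the Gencode M21 annotation of GRCm38, glycine codons (GGN) made up a median of 24.1% of the codons of the 44 members, from 9.2% to 31.1%, against a median of 6.0% over 21526 coding genes. The longest unbroken stretch of triplets that each begin with GGN ran over a median of 58.5 triplets in the members and 2 in all coding genes. A stretch of at least 20 triplets was present in 64 coding genes, among them all 44 members. Col3a1 had the longest (344 triplets), beside 338 in Col1a1 and 339 in both Col1a2 and Col2a1, whereas the 6 type IV chains had 39 to 66 and the 6 type VI chains 37 to 87. Fibrillar genes code for the helix in many short exons of 54 bases, which hold 6 whole triplets each. The first exon of this kind in 4 fibrillar genes is shown 5′ to 3′ on the coding strand, because the regular spacing of glycine codons is what the members share. Capitals mark the glycine codon that opens each triplet.
Col1a1, exon 8 of GRCm38 chr11:94939904-94939957 (+): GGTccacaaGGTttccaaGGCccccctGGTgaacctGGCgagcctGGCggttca
Col1a2, exon 8 of GRCm38 chr6:4515481-4515534 (+): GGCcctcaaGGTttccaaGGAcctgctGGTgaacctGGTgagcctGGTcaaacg
Col2a1, exon 6 of GRCm38 chr15:97998545-97998598 (-): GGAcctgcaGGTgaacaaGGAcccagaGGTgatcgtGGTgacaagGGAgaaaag
Col3a1, exon 6 of GRCm38 chr1:45325360-45325413 (+): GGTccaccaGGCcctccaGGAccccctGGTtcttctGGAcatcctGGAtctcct

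**Figure D1:**
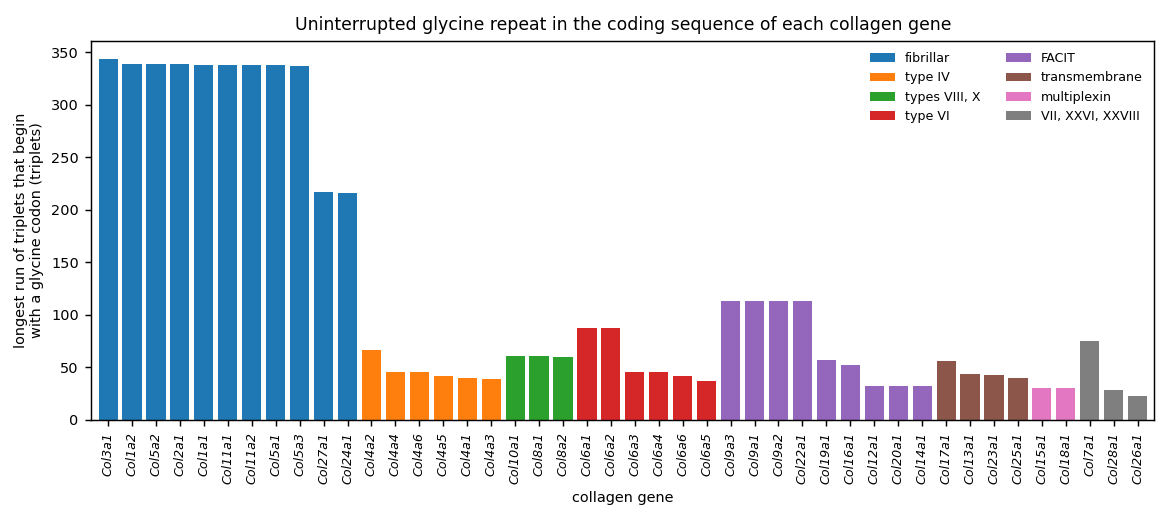
Longest unbroken stretch of triplets beginning with a glycine codon in the coding sequence of each of the 44 collagen genes, grouped and coloured by the kind of collagen, with the number of triplets on the y axis. The fibrillar genes lie between 216 and 344 triplets and every other kind lies at 113 or below.

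Members were described in 8 structural groups because their roles differ. The paired genes Col4a1 and Col4a2, which encode the 2 chains of the common basement membrane collagen, lie head to head on mouse chromosome 8, and their annotated starts are 21 bases apart. The corresponding distance was 72 bases for Col4a3 and Col4a4 and 1309 bases for Col4a5 and Col4a6. The RefSeq promoter windows (GRCm38.p6, 250 bases before to 50 bases after the start) of Col4a1 and Col4a2 are printed because both genes fell in footprints of the Hbs1l cKO and Pelo cKO MEFs, with the CCAAT letters, or ATTGG where they lie on the other strand, in capitals.
Col4a1 promoter, GRCm38.p6 chr8:11312777-11313076 (-): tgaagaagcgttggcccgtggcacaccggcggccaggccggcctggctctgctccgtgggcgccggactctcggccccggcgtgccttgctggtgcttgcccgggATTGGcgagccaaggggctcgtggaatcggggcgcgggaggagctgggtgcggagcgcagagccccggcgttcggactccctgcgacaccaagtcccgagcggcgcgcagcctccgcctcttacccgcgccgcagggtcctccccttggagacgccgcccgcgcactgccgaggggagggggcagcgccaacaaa
Col4a2 promoter, GRCm38.p6 chr8:11312555-11312854 (+): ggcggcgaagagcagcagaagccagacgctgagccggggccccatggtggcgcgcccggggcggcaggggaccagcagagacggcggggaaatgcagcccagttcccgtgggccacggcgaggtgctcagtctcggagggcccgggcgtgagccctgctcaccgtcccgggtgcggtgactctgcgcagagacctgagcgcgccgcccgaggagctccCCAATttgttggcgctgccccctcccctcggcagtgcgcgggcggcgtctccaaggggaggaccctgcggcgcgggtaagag
The windows overlap, and each holds 1 CCAAT, no TATAAA and a GC content of 74.0% (Col4a1) or 73.7% (Col4a2). The RefSeq table held 35 of the 44 members with 38 windows. CCAAT on either strand was found in 34.2% of the members' windows and in 37.4% of all 32851 windows, TATAAA in 13.2% and 13.6%, and GGGCGG in 60.5% and 35.7%. These matches describe the windows and mark no site.

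Library totals ran from 2634480 to 7298812 counted fragments in embryos, 10919139 to 22591768 in cerebella and 5782990 to 25607974 in MEFs, and from 22713643 to 86425762 estimated counts for RNA. Levels are given as CPM, the counts of a gene scaled to a common library total, divided by coding length in kilobases where genes are compared with each other. Fold changes come from edgeR's quasi-likelihood test after TMM scaling, with the standard error (SE) on the log2 scale, Benjamini-Hochberg adjustment over all genes tested and a threshold of 0.05. Footprints of Hbs1l fell by 3.60 on the log2 scale in the Hbs1l -/- embryos, by 1.50 in the cKO cerebella and by 4.15 in the Hbs1l cKO MEFs, where its mRNA fell by 2.78. Pelo footprints fell by 3.78 and Pelo mRNA by 6.15 in the Pelo cKO MEFs. In the libraries labelled Upf2 cKO, however, Upf2 stood at 115, 113 and 119 CPM of footprints against 54.9, 49.2 and 58.3 CPM in controls, a log2 change of 1.09, and its mRNA changed by 1.33. Counts per gene thus showed no loss of Upf2. They cannot tell remaining exons from deleted ones, so they do not decide whether the label holds. The name libraries labelled Upf2 cKO is used throughout. Markers of the labelled tissues were present. The summed level of 10 fibroblast markers was 16540 CPM or more in every MEF footprint library, 4 granule neuron markers summed to 1636 to 3479 CPM in the cerebella, and 5 erythroid and 4 heart markers were all above 0 in the embryos.

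The collagens took different shares of the footprints in the 3 settings. They made up 0.255% to 0.279% of the footprint fragments in wild-type embryos, 0.161% to 0.549% in control cerebella and 3.44% to 3.61% in control MEFs. Per kilobase of coding sequence, the highest member in the wild-type embryos was Col18a1, a heparan sulphate-bearing collagen of basement membranes (mean 116 CPM per kb), followed by Col4a1 (116), Col4a2 (64.8) and Col1a1 (62.5). The first 2 in this order, and likewise Col4a2 and Col1a1, did not differ beyond their spread. In control cerebella the order was Col1a1 (251), Col1a2 (162), Col18a1 (61.4) and Col9a3 (56.0), with 1 library far above the others for type I. The cerebellar control libraries overlapped between each pair of neighbours in this order. Control MEFs were led by the 2 type I chains, Col1a1 (2882) and Col1a2 (969), followed by Col4a1 (616), Col12a1 (515) and Col8a1 (481), of which the last 3 overlapped. The tissues were sequenced in batches of their own, so tissue and batch cannot be told apart in these levels.

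Hbs1l -/- embryos had fewer footprints of 3 fibrillar chains, of 1 basement membrane chain and of Col26a1. Of the 24 members that passed the filter on low counts, 5 fell, Col1a1, Col2a1, Col3a1, Col4a5 and Col26a1, against 0.955% of all 11416 genes tested, and none rose by edgeR or by DESeq2, against 0.920% of all genes. The fitted change was below 0 for all 24, with a median of -0.84 on the log2 scale against 0.01 over all genes tested. An unadjusted p under 0.05 was found for 16 of the 24 and for 2121 of the 11416 genes. In 16 members every Hbs1l -/- library was below every wild-type library, and the share of all genes apart in this way was not counted. The filter asked for 2.98 CPM in 3 libraries, which Col7a1 reached in the wild type alone and 5 other members in only some of the mutants. Such members could enter only if high in the wild type, so the counts over the 24 are a description. The other 20 members were too low to test. Leaving out Hbs1l -/- replicate 1 raised the count of members that fell to 12, leaving out replicate 2 or 3 lowered it to 1 or 2, and leaving out any 1 of the wild-type libraries gave 0 calls, so no single member kept its call in all 6 of these fits.

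Col3a1, which forms fibrils with type I collagen in soft tissues, was at 65.3, 32.7 and 40.6 CPM in the Hbs1l -/- embryos and at 125, 113 and 119 CPM in the wild type. It was 2.54-fold lower (SE 0.22, adjusted p = 0.00789, edgeR). Col2a1, the fibrillar chain of cartilage and of the embryonic notochord and somites, was at 95.4, 47.8 and 33.4 CPM against 177, 203 and 161 CPM. Its 3.00-fold difference was the largest of the 5 (SE 0.28, adjusted p = 0.0136), and the groups did not overlap for either gene. Col1a1, the main chain of type I collagen, was at 198, 120 and 123 CPM in the Hbs1l -/- libraries and at 272, 299 and 247 CPM in the wild type, 1.85-fold lower (SE 0.19, adjusted p = 0.0324). Its partner chain Col1a2 was at 165, 90.1 and 96.2 CPM against 182, 187 and 164 CPM, and replicate 1 of the mutants reached into the wild-type range (log2 change -0.59, adjusted p = 0.151). Hbs1l -/- replicate 1 was the highest of the 3 mutants for each of these 4 fibrillar chains.

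Of the type IV chains, Col4a5 fell and Col4a1 and Col4a2 did not pass. Col4a5, a chain of a more specialised type IV network, was at 47.3, 21.6 and 20.7 CPM in the mutants and at 68.0, 73.5 and 61.3 CPM in the wild type, a log2 change of -1.14 (SE 0.27, adjusted p = 0.0483). Col4a1 was at 528, 549 and 546 CPM against 497, 556 and 725 CPM, and its groups overlapped (log2 change -0.13, SE 0.15, adjusted p = 0.673). Col4a2 was at 269, 285 and 242 CPM against 308, 323 and 365 CPM and did not pass the test (-0.32, adjusted p = 0.230). Col18a1 was at 538, 351 and 245 CPM against 641, 659 and 585 CPM, with no overlap but an adjusted p of 0.102. Col26a1, a small secreted collagen first described in gonads, was at 25.8, 14.4 and 17.4 CPM in the mutants and at 34.0, 44.1 and 43.2 CPM in the wild type, 2.08-fold lower (SE 0.24, adjusted p = 0.0434). The type V chains Col5a1 (log2 change -0.57) and Col5a2 (-0.32), the cartilage chains Col9a1 (-1.49) and Col11a1 (-1.33) and the type VI chains Col6a1 (-0.60), Col6a2 (-0.59) and Col6a3 (-0.67) did not pass the threshold. The 3 type VI chains were at 13.2 CPM or below in every embryo library.

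Other tissues of the embryo moved as well. The summed level of 5 erythroid markers was 13040 to 17030 CPM in the wild type and 3176 to 8678 CPM in the Hbs1l -/- embryos, that of 4 heart markers 629 to 746 against 312 to 423 CPM, and that of 5 skeletal muscle markers 181 to 361 against 56.6 to 117 CPM. The 6 trophoblast markers summed to 18.8 to 28.9 CPM in the wild type and to 301 to 900 CPM in the mutants. Markers of parietal endoderm, a large source of type IV collagen in the conceptus, summed to 1620 to 2500 against 2093 to 3053 CPM, and fibroblast markers to 1085 to 1105 against 915 to 1135 CPM. The part of these differences in tissue makeup in the collagen results was not tested. In whole tissue, fewer cells of a type and less RNA per cell cannot be told apart.

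**Figure D2:**
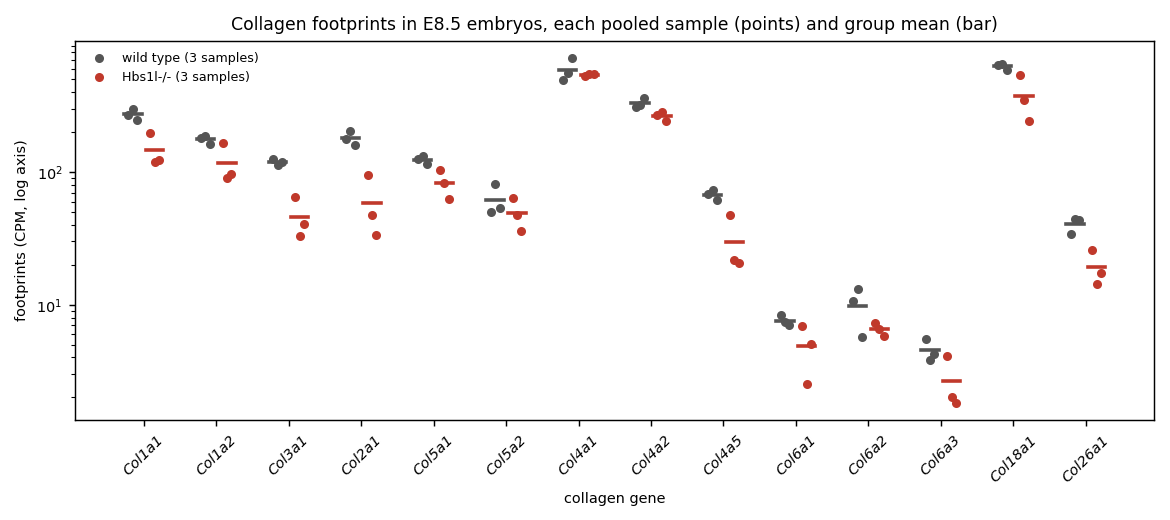
Ribosome footprints of collagen genes in embryos, as CPM on a log axis, with 1 point for each of the 3 Hbs1l -/- and 3 wild-type libraries of each gene and a bar at the group mean. Col1a1, Col2a1, Col3a1 and Col4a5 are lower in every mutant library, while the points of Col4a1 overlap around 500 CPM.

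Collagen footprints in the cerebellum gave no call with edgeR. Of 41 members tested in Atoh1-Cre;Hbs1l cKO cerebella, 0 were called higher (0.0554% of all 14430 genes tested) and 0 lower (0.00693%). Of these 41, 2 had an unadjusted p under 0.05, where 1936 of the 14430 genes did. DESeq2 called 1, Col26a1, and the median change was -0.11. The lone 2 calls seen on leaving out a library, both lower, came without control replicate 3. Col26a1 was at 15.4, 15.6 and 16.6 CPM in the cKO cerebella and at 10.1, 10.5 and 10.4 CPM in controls, 1.54-fold higher with no overlap (SE 0.13, adjusted p = 0.116, edgeR). It was named after its values were seen, as the member DESeq2 called.

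Type I collagen varied more between mice of one genotype than between genotypes. Col1a1 was at 408, 1527 and 441 CPM in the cKO cerebella and at 2271, 675 and 336 CPM in controls, so that the highest and the lowest library were both controls. Col1a2 likewise had its highest and its lowest library among the controls, with 323, 880 and 319 CPM against 1271, 470 and 262 CPM. The same 2 libraries, cKO replicate 2 and control replicate 1, were also the highest for Col11a1, at 66.7 and 94.8 CPM against 16.1 to 29.1 CPM in the other 4. Col9a3, a FACIT chain among the leading members of this tissue, was steadier, at 93.8, 135 and 91.6 CPM against 113, 117 and 113 CPM. Col4a1 was at 151, 165 and 124 CPM in the cKO cerebella against 255, 253 and 105 CPM, with the lowest control below all 3 mutants. The following chains overlapped as well, with log2 changes of 0.07 for Col3a1, -0.15 for Col5a1, -0.16 for Col5a2, -0.61 for Col4a2, and 0.02, -0.14 and 0.17 for Col6a1, Col6a2 and Col6a3. Among the cartilage chains, Col2a1 had 0.07, Col9a1 -0.19, Col11a1 -0.11 and Col10a1 -0.64. Col19a1 was lower without overlap, at 14.9, 17.1 and 9.57 CPM in the cKO cerebella against 25.8, 23.0 and 18.7 CPM. Col28a1, at no more than 0.915 CPM in any cerebellum library, was also lower without overlap, and neither was called. Meningeal fibroblast markers summed to 1630 to 2308 CPM in controls and 1508 to 1795 CPM in the cKO mice. Granule neuron markers, of the cells in which Cre is active, summed to 1940 to 3479 against 1636 to 2272 CPM, and Purkinje cell markers to 6091 to 11840 against 4392 to 5904 CPM.

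**Figure D3:**
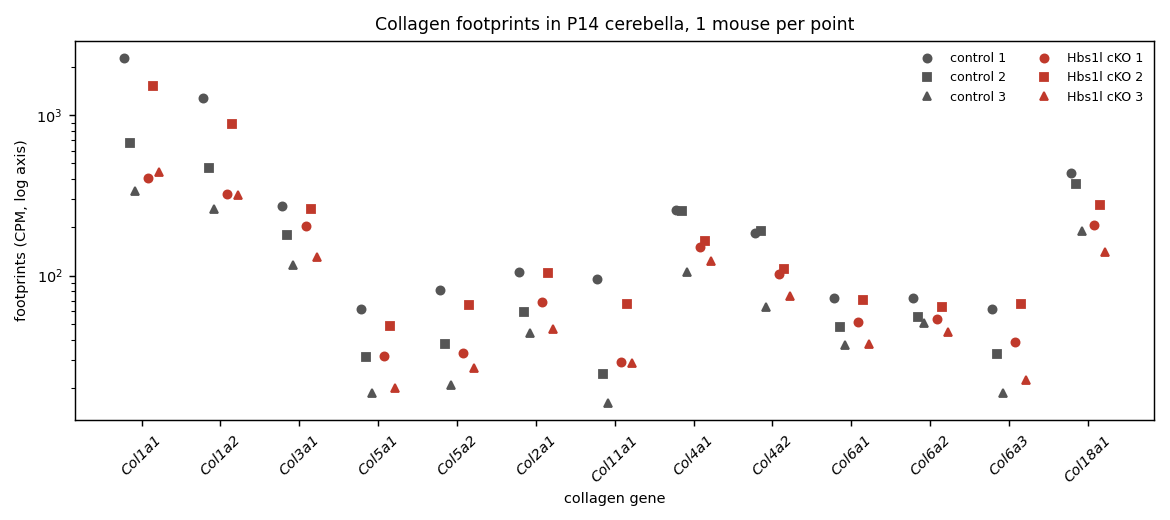
Ribosome footprints of collagen genes in cerebella at postnatal day 14, as CPM on a log axis, with 1 point for each of the 3 Atoh1-Cre;Hbs1l cKO and 3 control libraries of each gene. The points of Col1a1 span 336 to 2271 CPM among the controls alone, and the 2 groups overlap for every gene shown.

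The effect of losing Hbs1l was then compared between settings by the interaction of setting and genotype over 12 libraries. Against MEFs, the change in embryos was lower for 12 of 36 members tested and higher for none with edgeR or DESeq2, where 7.46% of all genes differed in either direction. Of the 36, 18 had an unadjusted p under 0.05, where 3165 of all 13062 genes tested did. Col3a1, lower in mutant embryos and higher in mutant MEFs, had a difference of -2.26 on the log2 scale (SE 0.26, adjusted p = 0.000176). For Col1a1 the difference was -1.09 (adjusted p = 0.00995), for Col1a2 -1.17, for Col5a1 -0.69 (a call lost in 10 of the 12 fits without 1 library), for Col18a1 -1.57, and for the type VI chains Col6a1, Col6a2 and Col6a3 -1.81, -2.10 and -1.87. Of the other 4, Col9a2, Col16a1, Col15a1 and Col8a2, the embryo mutants held only 0 to 6 fragments each, so the size of their fitted difference depends on the prior count. On leaving out single libraries the call of Col8a2 was lost in 9 of 12 fits, that of Col9a2 in 5 and that of Col6a3 in 1. Without Hbs1l -/- embryo replicate 1 the count was 19. Against cerebella, 3 of 40 members differed, Col26a1 by -1.67 (SE 0.29, adjusted p = 0.0199), Col16a1 by -3.12 and Col9a2 by -2.86, where 0.732% of all genes differed. That count was 9 without Hbs1l -/- embryo replicate 1, 1 without its replicate 2 or wild-type embryo replicate 1, and 0 without Hbs1l -/- embryo replicate 3, wild-type embryo replicate 2 or 3, cKO cerebellum replicate 1, or control cerebellum replicate 1 or 2. Each setting is its own batch, so setting and batch cannot be told apart.

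In MEFs many collagens changed, in both directions. In the Hbs1l cKO MEFs 11 of 36 members rose and 8 fell, where 17.4% and 16.7% of all genes tested did so. In the Pelo cKO MEFs 15 of 38 rose and 11 fell (22.9% and 21.2% of all genes), and in the libraries labelled Upf2 cKO 17 of 36 rose and 9 fell (22.3% and 21.1%). The median change over the members tested was 0.14, 0.31 and 0.32 against -0.01, 0.00 and 0.00 over all genes. The median over the members ranged from -0.03 to 0.28, 0.09 to 0.39 and 0.22 to 0.66 when each library was left out in turn. The 3 comparisons share their control dishes: control libraries with the same number in different sets differed by 1.10 to 1.19 chi-square units per degree of freedom, close to the sampling noise, against 4.07 to 11.7 for different numbers. Their results are therefore given side by side and are not independent. On leaving out single libraries, some calls were lost in at least 1 fit: those of Col1a1, Col14a1 and Col16a1 in the Hbs1l set, of Col1a1, Col4a6 and Col12a1 in the Pelo set, and of Col4a1, Col4a6, Col5a1, Col8a1, Col19a1, Col24a1 and Col28a1 in the libraries labelled Upf2 cKO. Among those counted as higher, Col6a6 and Col17a1 in the Pelo set and Col6a6 and Col26a1 in the set labelled Upf2 cKO passed the filter on low counts through the mutant libraries alone, and a gene that enters in this way had to differ. Together the collagens took 3.66% to 4.28% of the footprint fragments in Hbs1l cKO MEFs, 3.80% to 4.51% in Pelo cKO MEFs and 4.30% to 4.68% in the libraries labelled Upf2 cKO, above the 3.44% to 3.61% of the controls.

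Among the fibrillar collagens, Col1a1, Col1a2, Col3a1 and Col5a3 rose in all 3 sets and Col2a1 and Col11a1 fell. Col3a1 was at 1872, 1884 and 1397 CPM in the Hbs1l cKO MEFs against 915, 839 and 938 CPM in controls, 1.91-fold higher (SE 0.10, adjusted p = 1.1e-05). It was at 2091, 1602 and 2902 CPM in the Pelo cKO MEFs, 2.45-fold higher (SE 0.17, adjusted p = 0.000241), and at 2769, 2394 and 2327 CPM in the libraries labelled Upf2 cKO, 2.75-fold higher (SE 0.08, adjusted p = 7.43e-07). No mutant library overlapped the controls. Col5a3, a minor type V chain, was at 18.9 to 27.2 CPM in the controls of the 3 sets and at 55.6 to 79.9, 83.3 to 106 and 66.8 to 76.9 CPM in the mutants, which made it 3.10-fold, 4.70-fold and 3.10-fold higher. Col1a2 was 1.51-fold, 1.71-fold and 1.61-fold higher. Col1a1, the most abundant member, rose less. It was at 14940, 15460 and 13280 CPM in the Hbs1l cKO MEFs against 12470, 13280 and 11940 CPM in controls, 1.16-fold higher with overlap (SE 0.07, adjusted p = 0.0270), and 1.22-fold and 1.24-fold higher in the other 2 sets. Its call was lost in 4 of 6 fits without 1 library in the Hbs1l set and in 3 of 6 in the Pelo set. Col5a1 and Col5a2, the major type V chains, stayed within 1.16-fold of the controls, and Col5a1 alone of them passed, in the libraries labelled Upf2 cKO (1.16-fold, adjusted p = 0.0207).

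Col2a1 and Col11a1 build cartilage fibrils. Col2a1 was at 33.9, 30.8 and 82.1 CPM in the Pelo cKO MEFs against 491, 601 and 452 CPM in controls, 10.4-fold lower (SE 0.33, adjusted p = 2.81e-05), the largest fall of any member there. In the Hbs1l cKO MEFs it was at 253, 307 and 191 CPM against 510, 621 and 447 CPM, 2.11-fold lower (SE 0.14, adjusted p = 7.47e-05), and in the libraries labelled Upf2 cKO it was 2.01-fold lower (SE 0.21, adjusted p = 0.00254), with replicate 3 at 382 CPM and the other 2 at 199 and 204 CPM. Col11a1 was 4.10-fold lower in the Pelo cKO MEFs, at 137, 153 and 158 CPM against 614, 690 and 530 CPM, and 1.63-fold and 1.66-fold lower in the Hbs1l cKO MEFs and the libraries labelled Upf2 cKO. The remaining fibrillar genes were low. Col24a1 rose in the libraries labelled Upf2 cKO, where it had 4.82 to 5.25 CPM against 1.98 to 3.32 CPM, and Col27a1 and Col11a2 passed in none of the 3 sets, Col11a2 being too low to test in the Pelo set.

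The 3 main type VI chains, which assemble into 1 microfibril, rose together. Col6a2 was at 628, 590 and 452 CPM in the Hbs1l cKO MEFs against 196, 150 and 240 CPM, 2.86-fold higher (SE 0.14, adjusted p = 6.07e-06). It was 3.91-fold higher in the Pelo cKO MEFs, at 775, 640 and 870 CPM, and 3.55-fold higher in the libraries labelled Upf2 cKO, at 828, 668 and 639 CPM. Col6a1 was 2.41-fold, 3.20-fold and 2.79-fold higher and Col6a3 2.47-fold, 3.38-fold and 2.50-fold higher, and for none of the 3 chains did a mutant library overlap a control. The rarer chain Col6a6 was near 0 in controls, with at most 0.261 CPM, and was too low to test in the Hbs1l set. It was at 0.851 to 3.84 CPM in the Pelo cKO MEFs and at 3.58 to 6.43 CPM in the libraries labelled Upf2 cKO. It reached the filter on low counts through these mutant libraries alone, so its values are a description. Col6a4 rose in the Pelo cKO MEFs, from 0.357 to 1.23 CPM in controls to 2.25 to 2.96 CPM.

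Of the type IV chains, Col4a1 and Col4a5 fell in all 3 sets. Col4a1 was at 1915, 2256 and 2176 CPM in the Hbs1l cKO MEFs against 3013, 3775 and 2680 CPM in controls, 1.49-fold lower (SE 0.10, adjusted p = 0.000734). In the Pelo cKO MEFs it was at 1591, 1766 and 1317 CPM, 2.02-fold lower (SE 0.13, adjusted p = 0.000199), and in the libraries labelled Upf2 cKO at 2135, 2298 and 2979 CPM, where replicate 3 lay above the lowest control (1.29-fold lower, SE 0.13, adjusted p = 0.0449). Col4a2 was 1.46-fold and 1.75-fold lower in the Hbs1l cKO and Pelo cKO MEFs and was not called in the libraries labelled Upf2 cKO (1.14-fold lower, adjusted p = 0.234). Col4a5 was 1.54-fold, 1.92-fold and 1.59-fold lower. Col4a6, at 6.34 to 11.7 CPM in controls, was called lower in the Pelo set (1.86-fold) and the libraries labelled Upf2 cKO (1.48-fold). Col4a3 and Col4a4 were too low to test.

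The network-forming collagens of types VIII and X differed between the genotypes. Col8a1 fell in all 3 sets, 1.64-fold, 2.21-fold and 1.24-fold. Col8a2, which forms hexagonal networks with it, was at 75.8, 75.9 and 76.1 CPM in the libraries labelled Upf2 cKO against 29.0, 30.3 and 22.8 CPM, 2.78-fold higher (SE 0.10, adjusted p = 2.22e-06). In the Hbs1l cKO MEFs it was at 30.8, 28.2 and 21.6 CPM against 28.4, 29.1 and 24.3 CPM (log2 change -0.02), and in the Pelo cKO MEFs at 17.9, 17.4 and 30.4 CPM against 23.1, 26.5 and 24.2 CPM (-0.15), with overlap in both. Col10a1, a marker of hypertrophic cartilage, was at 11.1, 9.18 and 5.27 CPM in the Pelo cKO MEFs against 29.2, 31.3 and 21.9 CPM, 3.29-fold lower (SE 0.24, adjusted p = 0.000289). It was 1.63-fold lower in the libraries labelled Upf2 cKO, and in the Hbs1l cKO MEFs its log2 change was -0.29 (adjusted p = 0.0886).

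Both multiplexins, collagens with interrupted helices at basement membranes, rose. Col15a1 was at 34.5, 38.2 and 24.7 CPM in the Hbs1l cKO MEFs against 15.4, 12.5 and 20.6 CPM, 2.00-fold higher, and 4.46-fold and 3.86-fold higher in the Pelo cKO MEFs and the libraries labelled Upf2 cKO. Col18a1 was 1.79-fold, 2.93-fold and 2.03-fold higher, from 54.7 to 68.1 CPM in the controls. Of the FACIT collagens, Col14a1 rose in the 3 sets by 1.25-fold, 2.25-fold and 2.07-fold, Col16a1 rose 1.22-fold and 1.27-fold in the Hbs1l cKO and Pelo cKO MEFs, and Col19a1 fell 3.23-fold, 5.21-fold and 1.51-fold from 5.27 to 8.31 CPM. Col12a1, the most abundant FACIT chain at 4647 to 5104 CPM in controls, fell 1.17-fold in the Pelo cKO MEFs and was not called in the other 2 sets. Col7a1, which forms anchoring fibrils of skin, fell 2.09-fold, 2.65-fold and 2.13-fold, from 98.0 to 134 CPM in controls. Calls at low levels were Col28a1, higher in the Pelo cKO MEFs and the libraries labelled Upf2 cKO (at most 3.84 CPM), and Col9a2, higher in the libraries labelled Upf2 cKO (5.08 to 6.34 against 1.41 to 2.28 CPM). The genes that entered through the mutants alone are given as values. Col17a1, a transmembrane collagen of hemidesmosomes, was at 1.02 to 2.92 CPM in the Pelo cKO MEFs against 0.244 to 0.267 CPM, and Col26a1 at 3.31 to 4.74 CPM in the libraries labelled Upf2 cKO against 0.495 to 0.671 CPM.

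Single libraries carried cartilage transcripts. Hbs1l cKO replicate 2 had 13.1 CPM of Col11a2, 7.04 of Col9a1, 7.21 of Col9a2 and 5.20 of Col9a3, where the other 2 libraries of the group had at most 1.96 CPM of each. Its 8 non-collagen chondrocyte markers summed to 154.5 CPM, against 86.7 to 95.0 CPM in its controls. Pelo cKO replicate 3 had 7.15 CPM of Col11a2, where the other 2 libraries had 0.359 and 0.304 CPM, with 5.34 CPM of Col9a1 and 5.65 of Col9a2, and it was the library with 82.1 CPM of Col2a1. Col9a1 had log2 changes of 1.44, 0.96 and 0.33 in the 3 sets. None of these type IX chains was called in the set concerned, and neither was Col11a2 in the Hbs1l set. Summed fibroblast markers were at 19010 to 19210 CPM in Hbs1l cKO MEFs, 18650 to 20500 CPM in Pelo cKO MEFs and 16540 to 17090 CPM in the libraries labelled Upf2 cKO, against 16550 to 17220 CPM in the controls. Smooth muscle markers, which include the contractile genes of activated fibroblasts, summed to 10690 to 15280 CPM in the mutants of the 3 sets and to 19970 to 23230 CPM in controls, and macrophage markers to at most 217, 505 and 157 CPM in the mutants against 94.5 to 127 CPM. The part of these in the collagen results was not tested.

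**Figure D4:**
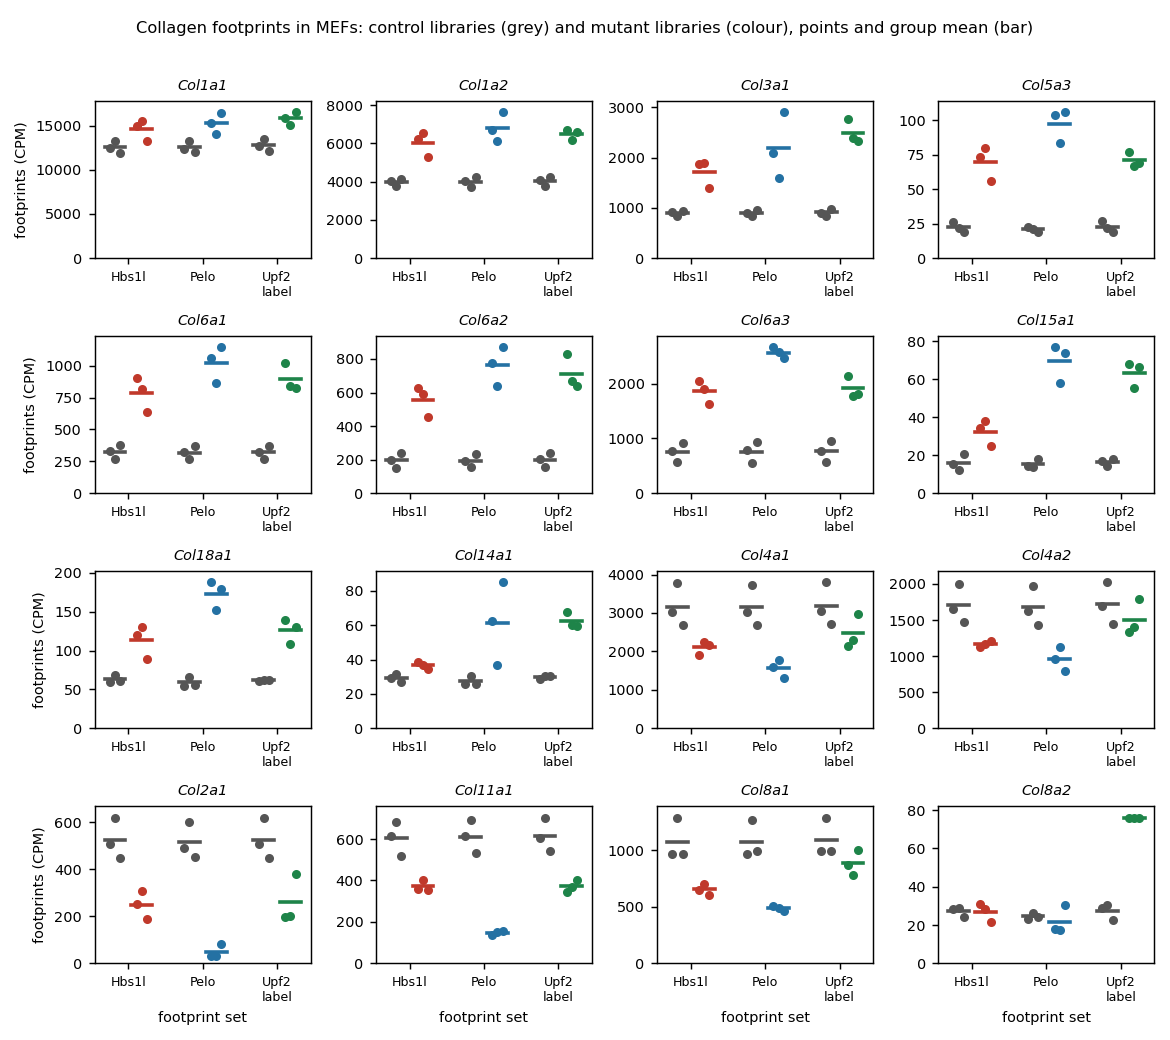
Ribosome footprints of 16 collagen genes in MEFs, as CPM on a linear axis from 0, 1 gene per panel, with 1 point for each library of the Hbs1l cKO, Pelo cKO and Upf2 cKO labelled MEFs (colour) and of their controls (grey) and a bar at each group mean. Col3a1 and the type VI chains lie above the controls in every mutant library, Col2a1 and Col11a1 below, and Col8a2 lies clear of its controls in the libraries labelled Upf2 cKO alone.

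The footprint effects of the 3 genotypes were compared by interaction terms, which treat the shared control dishes as separate. Between Pelo cKO and Hbs1l cKO MEFs, 5 of 39 members differed, where 5.55% of all genes did. Col15a1 (difference 1.16) and Col18a1 (0.71) were higher in the Pelo effect, and Col2a1 (-2.29), Col10a1 (-1.42) and Col11a1 (-1.32) were lower. Without control replicate 1 of the Pelo set 3 members were called, all lower. The call of Col18a1 was lost in 5 of 12 fits without 1 library and that of Col15a1 in 1. Between the libraries labelled Upf2 cKO and Hbs1l cKO, 4 of 38 differed and were higher, against 4.93% of all genes: Col8a2 by 1.50 (SE 0.18, adjusted p = 0.00014), Col15a1 by 0.95, Col14a1 by 0.73 and Col3a1 by 0.52. This count was 2 without replicate 1 of the libraries labelled Upf2 cKO or control replicate 1 or 2 of that set. It was also 2 without Hbs1l cKO replicate 3 or control replicate 1 of the Hbs1l set. The call of Col15a1 was lost in 8 of the 12 fits without 1 library and that of Col3a1 in 7. Between Pelo cKO and the libraries labelled Upf2 cKO, 12 of 40 members differed, against 13.0% of all genes. The 4 higher in the Pelo effect were Col6a4 (3.30), Col5a3 (0.60), Col18a1 (0.53) and Col16a1 (0.39). The 8 lower were Col26a1 (-2.60), Col2a1 (-2.37), Col19a1 (-1.78), Col8a2 (-1.62), Col11a1 (-1.30), Col10a1 (-1.01), Col8a1 (-0.83) and Col12a1 (-0.34). The calls of Col10a1 (10 of 12 fits), Col16a1 and Col5a3 (8 each), Col12a1 (7) and Col18a1 (6) were lost when 1 library was left out, and the count was 7 without control replicate 1 of either set.

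The mRNA of the collagens did not follow the footprints in every genotype. In the Hbs1l cKO MEFs 7 of 39 members rose and 10 fell in RNA, where 12.7% and 10.4% of all genes did. In the Pelo cKO MEFs 9 of 38 rose and 1 fell (15.5% and 16.6%), and in the libraries labelled Upf2 cKO 0 of 40 rose (13.2%) and 5 fell (6.76%). For those 40, edgeR gave 14 members an unadjusted p under 0.05, as it did 5560 of all 15983 genes tested. DESeq2 called none of the 40 higher. The median change of the members tested was -0.02, 0.43 and -0.31, against -0.01, -0.01 and -0.02 over all genes. Without 1 library it ranged from -0.18 to 0.18, 0.27 to 0.59 and -0.42 to -0.22, and with an offset for transcript length it was 0.24 in the Pelo cKO MEFs and -0.20 in the libraries labelled Upf2 cKO. Members' transcripts are long, with a median of 4634 bases against 2511 for the 9911 genes of at least 5 CPM. RNA libraries differed by length. In transcripts over 6000 bases the 2 Pelo cKO libraries stood 0.302 and 0.295 above the mean library on the log2 scale (median over 619 genes), control 1 at -0.17 and control 2 at 0.25. With an offset for transcript length, 18, 7 and 3 members were called. The call count in the Hbs1l cKO MEFs was 11 without Hbs1l cKO replicate 2 or control replicate 2. In the Pelo cKO MEFs it was 3 or 2 without Pelo cKO replicate 1 or 2. In the libraries labelled Upf2 cKO it was 3 without any 1 of them or without control replicate 3, 2 without control replicate 2 and 8 without control replicate 1.

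In the Hbs1l cKO MEFs, Col1a2, Col3a1, Col5a3, Col6a1, Col6a2, Col18a1 and Col26a1 rose in RNA and 4 type IV chains were among those that fell. RNA is given in TPM, transcript abundances scaled for length and to a common total, summed over the transcripts of a gene. Col6a2 was at 118, 80.0 and 52.1 TPM against 12.3, 24.7 and 32.9 TPM in controls, 3.50-fold higher (SE 0.33, adjusted p = 0.00591). Col5a3 was 3.15-fold, Col6a1 2.82-fold, Col3a1 2.07-fold, Col18a1 1.88-fold and Col1a2 1.68-fold higher, and Col26a1 2.64-fold higher at no more than 1.50 TPM in any of these libraries. The calls of Col1a2, Col18a1 and Col26a1 were lost in 4 of the 6 fits without 1 library and that of Col3a1 in 3. Col4a1 was at 98.9, 82.6 and 68.0 TPM against 99.9, 174 and 169 TPM, 1.80-fold lower (SE 0.16, adjusted p = 0.00759), and Col4a2, Col4a5, Col4a6, Col2a1, Col11a1, Col7a1, Col8a1, Col9a3 and Col19a1 fell 1.52-fold to 3.44-fold, the call of Col9a3 being lost in 5 of 6 fits, that of Col4a2 in 4 and that of Col2a1 in 1. Control replicate 1 was the lowest control library for most of the abundant members, such as Col1a1 at 354 TPM beside 621 and 579 TPM. Col1a1 itself was at 923, 682 and 507 TPM in the mutants and was not called (log2 change 0.41, adjusted p = 0.188), and neither were Col5a1 (0.15), Col5a2 (-0.02) and Col6a3 (0.99, adjusted p = 0.0693), Col9a1 (-0.42) and Col10a1 (-0.34).

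In the Pelo cKO MEFs, RNA and footprints of type IV chains went in opposite directions. Col4a1 mRNA was at 304 and 322 TPM against 99.9, 174 and 169 TPM, 2.03-fold higher (SE 0.17, adjusted p = 0.00565), while its footprints were 2.02-fold lower. Col4a2 mRNA was at 211 and 209 TPM against 74.0, 122 and 107 TPM, 1.95-fold higher (SE 0.16, adjusted p = 0.00499), beside footprints 1.75-fold lower. Col4a5 mRNA was 1.59-fold higher, Col7a1 mRNA 1.48-fold higher, Col5a1 1.73-fold, Col1a1 1.52-fold, Col5a2 1.40-fold, Col18a1 1.60-fold and Col16a1 1.44-fold higher, and Col8a1 mRNA was 1.36-fold lower. Col4a1 and Col4a2 alone kept their call whichever library was left out, and with the length offset their log2 changes were 0.72 and 0.67. Col2a1 mRNA, at 45.8 and 47.5 TPM against 32.2, 47.8 and 44.9 TPM, overlapped the controls (log2 change 0.07) although its footprints were 10.4-fold lower. The type VI chains, 3.20-fold to 3.91-fold higher in footprints, had mRNA changes of 0.38 (Col6a1), 0.40 (Col6a2) and 0.94 (Col6a3) that did not pass, and Col3a1 (0.41), Col1a2 (0.64, adjusted p = 0.0631) and the cartilage chains Col9a1 (-0.49), Col10a1 (-0.11) and Col11a1 (-0.27) did not pass either.

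In the libraries labelled Upf2 cKO, Col11a1 mRNA was at 10.5, 9.33 and 8.05 TPM against 12.4, 24.7 and 19.0 TPM, 1.99-fold lower (SE 0.17, adjusted p = 0.00218), Col8a1 was 1.90-fold lower, Col9a1 2.34-fold, Col4a6 1.51-fold and Col16a1 1.38-fold lower. On leaving out single libraries the call of Col4a6 was lost in 6 of 6 fits, that of Col16a1 in 5 and that of Col9a1 in 4. Col3a1 mRNA, at 57.8, 82.9 and 58.8 TPM against 48.9, 98.2 and 100 TPM, overlapped (-0.18), while its footprints were 2.75-fold higher. The mRNA changes of the other chains with higher footprints were -0.29 (Col1a1), -0.09 (Col1a2), -0.30 (Col5a1), -0.33 (Col8a2), 0.15 (Col6a1), 0.24 (Col6a2), -0.22 (Col6a3), 0.10 (Col5a3), -0.72 (Col9a2), 0.21 (Col14a1), 0.48 (Col15a1), 0.40 (Col18a1), -0.33 (Col24a1), 0.94 (Col26a1) and -0.14 (Col28a1), and none passed. Col6a6 was not tested in this RNA comparison. Col4a1 (-0.35), Col4a2 (-0.14), Col5a2 (-0.33), Col2a1 (-0.41) and Col10a1 (-0.47) were not called either.

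Footprints relative to mRNA, taken as the interaction of assay and genotype, put a number on these differences. For Hbs1l cKO MEFs none of 40 members was called in either direction (0.00761% of all genes each way) by edgeR or DESeq2. Of the 40, 2 had an unadjusted p under 0.05, where 2116 of all 13146 genes tested did. The log2 values of this ratio were -0.19 for Col1a1, -0.14 for Col1a2, -0.10 for Col3a1, 0.01 for Col5a1, 0.09 for Col5a2, 0.28 for Col4a1, 0.06 for Col4a2, and -0.21, -0.28 and 0.33 for Col6a1, Col6a2 and Col6a3. The cartilage chains had -0.13 (Col2a1), 1.88 (Col9a1), 0.36 (Col11a1) and 0.05 (Col10a1). For Pelo cKO MEFs 9 of 43 members were higher and 12 lower, against 21.9% and 18.6% of all genes. Col2a1 had the lowest ratio of footprints to mRNA, 10.9-fold lower (SE 0.41, adjusted p = 4.36e-05), followed by Col19a1 (4.81-fold), Col4a1 (4.09-fold), Col7a1 (3.92-fold), Col4a2 (3.40-fold) and Col11a1 (3.39-fold). The other lower ratios were those of Col10a1 (3.08-fold), Col4a5 (3.04-fold), Col4a6 (2.44-fold), Col12a1 (1.71-fold), Col8a1 (1.62-fold) and Col5a1 (log2 change -0.70). Higher ratios were found for Col15a1 (3.32-fold), Col6a2 (2.97-fold), Col6a1 (2.47-fold), Col5a3 (2.42-fold), Col3a1 (1.85-fold) and Col18a1 (1.84-fold), and, at low footprint levels, for Col6a4, Col17a1 and Col28a1. Of these 9, Col17a1 passed the filter in its footprint set through the mutant libraries alone, so its higher footprints and ratio are given as values and not as support. The chains Col1a1 (-0.32), Col1a2 (0.14), Col5a2 (-0.38), Col6a3 (0.81) and Col9a1 (1.43) were not called. Of the 21 calls, 15 were kept whichever library was left out. Col3a1 lost its call in 9 of these 11 fits, Col12a1 in 8, Col28a1 in 6, Col6a4 in 2 and Col5a1 and Col17a1 in 1. With the length offset Col4a1 and Col4a2 had log2 changes of -1.74 and -1.47.

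In the libraries labelled Upf2 cKO the ratio was higher for 17 of 39 members and lower for 1, against 7.60% and 10.4% of all genes, with a median of 0.74 against -0.03. Col8a2 was 3.48-fold higher (SE 0.21, adjusted p = 0.00017), Col3a1 3.09-fold, Col6a2 2.98-fold, Col5a3 2.88-fold, Col6a3 2.88-fold, Col15a1 2.78-fold, Col6a1 2.49-fold, Col14a1 1.80-fold, Col1a2 1.69-fold and Col1a1 1.50-fold higher. The others were Col9a2 (4.84-fold), Col24a1 (2.24-fold), Col18a1 (1.53-fold), Col8a1 (1.52-fold), Col5a2 (1.39-fold), Col26a1 and Col6a6. Of these 17, Col26a1 and Col6a6 had control footprints below the filter on low counts. They passed it in their footprint set through the mutant libraries alone, so their higher ratios are given as values and not as support. Col7a1 was the one member with a lower ratio, 2.04-fold (SE 0.28, adjusted p = 0.0185). Not called were Col5a1 (log2 change 0.49), Col4a1 (-0.03), Col4a2 (-0.07), Col2a1 (-0.61), Col9a1 (1.52), Col11a1 (0.25) and Col10a1 (-0.25). Without control RNA replicate 3 the count was 11. Of the 18 calls, 9 were kept whichever library was left out. Col1a1 lost its call in 10 of these 12 fits, Col5a2 and Col18a1 in 9, Col1a2 and Col8a1 in 7, Col7a1 and Col24a1 in 3, Col6a6 in 2 and Col6a3 in 1. Footprints and RNA came from different dishes and batches, and the RNA controls are shared by the 3 comparisons.

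**Figure D5:**
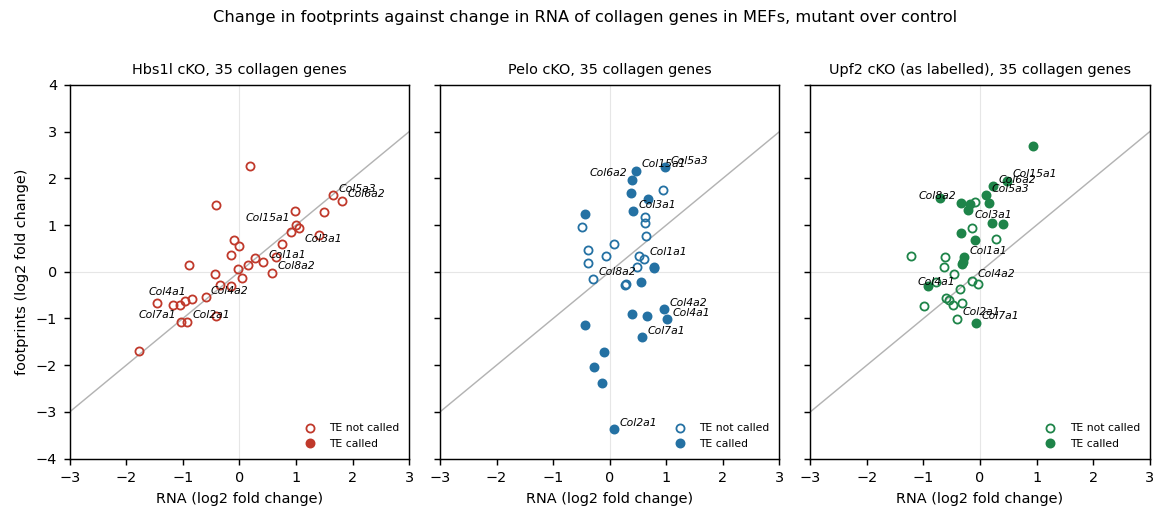
Log2 change of mRNA (x axis) against log2 change of ribosome footprints (y axis) for the collagen genes tested in both, in MEFs labelled Hbs1l cKO, Pelo cKO and Upf2 cKO, each relative to its controls, with filled points where the ratio of footprints to mRNA passed the test and a diagonal where both changes are equal. Col4a1 and Col4a2 lie at positive mRNA and negative footprint changes in the Pelo cKO panel, and Col3a1 and the type VI chains lie high in footprints with mRNA changes near 0 in the panel labelled Upf2 cKO.

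Direct comparison of the mutants in RNA used no control libraries. Pelo cKO MEFs had more mRNA than Hbs1l cKO MEFs for 13 of 38 members and less for 2, where 35.2% of all genes differed. Col4a1 differed by 1.91 (SE 0.14, adjusted p = 0.000234), Col4a6 by 1.90, Col4a5 by 1.68, Col19a1 by 1.68, Col7a1 by 1.64, Col4a2 by 1.61, Col9a3 by 1.20, Col2a1 and Col12a1 by 1.04, Col11a1 by 0.83, Col8a1 by 0.77, Col5a1 by 0.69 and Col5a2 by 0.55, and the lower 2 were Col6a1 (-1.07) and Col6a2 (-1.36). The calls of Col5a1, Col5a2 and Col6a1 were lost in 3 of the 5 fits without 1 library, those of Col2a1 and Col9a3 in 2 and that of Col19a1 in 1. The median difference of the members was 0.23, but -0.13 without Hbs1l cKO replicate 3 and -0.21 with the replicate block, and it was also negative with the offset for transcript length. The libraries labelled Upf2 cKO differed from Hbs1l cKO in 17 of 40 members, 8 higher and 9 lower, against 27.1% of all genes. Lower were Col6a2 (-1.56), Col5a3 (-1.55), Col6a1 (-1.33), Col3a1 (-1.22), Col6a3 (-1.20), Col8a2 (-0.89), Col1a2 (-0.83), Col16a1 (-0.73) and Col1a1 (-0.69), and higher were Col19a1 (1.23), Col9a3 (1.17), Col20a1 (1.12), Col7a1 (0.95), Col4a6 (0.86), Col4a5 (0.66), Col4a1 (0.50) and Col4a2 (0.47). Of these calls, that of Col4a6 was lost in 5 of 6 fits without 1 library, that of Col8a2 in 4, those of Col1a1, Col4a1, Col4a2, Col19a1 and Col20a1 in 3 and that of Col16a1 in 2. Pelo cKO exceeded the libraries labelled Upf2 cKO in 17 of 37 members and was lower in none with edgeR or DESeq2, against 28.9% of all genes. Of the 37, 18 had an unadjusted p under 0.05, where 6435 of all 15525 genes tested did. The differences there were 1.40 for Col4a1, 1.23 for Col12a1, 1.20 for Col6a3, 1.14 for Col4a2, 1.12 for Col5a1, 1.03 for Col4a6, 1.02 for Col16a1, 1.01 for Col4a5, 0.93 for Col1a1, 0.91 for Col5a3, 0.84 for Col5a2, 0.76 for Col1a2 and for Col11a1, 0.68 for Col7a1, 0.62 for Col3a1, 0.52 for Col8a1 and 0.51 for Col2a1. The call of Col2a1 was lost in 3 of 5 fits, that of Col8a1 in 2 and those of Col3a1, Col4a6 and Col7a1 in 1. The median difference was 0.57, and 0.35 with the offset for transcript length. In transcripts over 6000 bases the Pelo cKO libraries stood 0.302 and 0.295 above the mean library and replicate 3 of those labelled Upf2 cKO at -0.22, with replicates 1 to 3 of Hbs1l cKO at -0.21, -0.03 and -0.20.

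Single transcripts gave few calls with edgeR. Among 85, 84 and 89 collagen transcripts tested, 3, 1 and 2 were called in the Hbs1l cKO, Pelo cKO and Upf2 cKO labelled RNA, where 1.31%, 2.37% and 5.35% of all transcripts were. DESeq2 called more in each of the 3, as counted under the processing alternatives. Col8a1-201 was lower in the first and the third (log2 changes -1.16 and -0.99), Col7a1-202 and Col4a5-202 were lower in the Hbs1l cKO MEFs (-1.21 for each) and Col11a1-201 was lower in the libraries labelled Upf2 cKO (-1.07). Col14a1-202 was listed at 0.447 TPM on average in the Pelo cKO MEFs and near 0 in the controls. Leaving out any 1 library removed the calls in the Hbs1l cKO and Pelo cKO MEFs. For the libraries labelled Upf2 cKO, 0 remained without their replicate 2 or 3 and 1 without their replicate 1 or control replicate 2. None of the transcripts called by edgeR was annotated as a target of nonsense-mediated decay or as holding a retained intron. Only 4, 5 and 5 transcripts of the first kind and 16, 16 and 19 of the second were tested. With so few tested and called, their absence is no result about these kinds.

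Ratios were also taken between chains that assemble together. Per kilobase of coding sequence, Col1a1 footprints stood at 2.98 ± 0.32 (SD, n = 3) times those of Col1a2 in the MEF controls of the Hbs1l set, and at 2.29 ± 0.07, 2.12 ± 0.08 and 2.30 ± 0.06 times in the 3 mutants. The mutant libraries lay below every control library of their own set. In embryos the ratio was 1.45 ± 0.06 in the wild type and 1.20 ± 0.06 in the mutants. The ratio of Col4a1 to Col4a2 was 1.84 ± 0.04 in the MEF controls of the Hbs1l set and 1.81 ± 0.11, 1.63 ± 0.05 and 1.64 ± 0.03 in the mutants, with overlap of the Hbs1l cKO MEFs and their controls and none in the other 2 sets. The ratio of Col6a1 to Col6a2 was 1.86 ± 0.12 in the same controls and 1.56 ± 0.03, 1.48 ± 0.03 and 1.39 ± 0.03 in the mutants, with no overlap in any set. The ratio of Col5a1 to Col5a2 was 1.01 to 1.13 in the libraries of these controls and 1.15 ± 0.04, 1.07 ± 0.07 and 1.12 ± 0.07 in the mutants, with overlap in every set. In embryos the ratios of Col4a1 to Col4a2 (2.05 ± 0.18 in mutants, 1.78 ± 0.19 in the wild type), Col5a1 to Col5a2 (1.36 ± 0.06, 1.68 ± 0.36) and Col6a1 to Col6a2 (0.82 ± 0.34, 0.95 ± 0.39) overlapped, and in cerebella all 4 ratios did. In RNA the ratio of Col1a1 to Col1a2 in TPM was 1.65 ± 0.05 in Hbs1l cKO MEFs, 2.01 ± 0.05 (n = 2) in Pelo cKO MEFs and 1.83 ± 0.13 in the libraries labelled Upf2 cKO, against 2.11 ± 0.18 in controls, with overlap only of the Pelo cKO MEFs. The RNA ratio of Col4a1 to Col4a2 was 1.17 to 1.29 in Hbs1l cKO MEFs, against 1.349 to 1.588 in controls. It was 1.217 to 1.346 in the libraries labelled Upf2 cKO. That of Col6a1 to Col6a2 was 1.15 to 1.17 in Hbs1l cKO MEFs, against 1.363 to 1.525 in controls. That of Col5a1 to Col5a2 was 1.87 and 1.90 in Pelo cKO MEFs, against 1.30 to 1.66 in controls. The other genotypes overlapped the controls for these pairs. An exact test of 3 against 3 cannot reach the threshold for a single ratio, and none was run.

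The pattern of Col1a1 mRNA over the 11 RNA libraries was most like that of Sulf2 (Pearson r = 0.978 of log2 CPM), Col16a1 (0.973), Leng8 (0.972), Ggcx (0.965) and Vangl1 (0.960), among 9911 genes of at least 5 CPM. Its partner chain Col1a2 ranked 25 and Col5a1 ranked 29. These correlations describe libraries that share batch, genotype groups and length differences.

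Genes that act on collagen were listed by step, 101 in all. In embryos 1 of 80 tested was called by edgeR, against 0.920% of all genes called higher, and DESeq2 called 4 higher and 1 lower. The edgeR call was Mmp9, a gelatinase, at 36.0, 16.9 and 32.3 CPM in the Hbs1l -/- embryos against 11.1, 10.4 and 11.3 CPM. In cerebella none of 93 was called by edgeR and DESeq2 called 3. Of the 93, 16 had an unadjusted p under 0.05, where 1936 of all 14430 genes tested did. In MEF footprints 17 of 92 rose and 23 fell in the Hbs1l cKO MEFs, 32 of 93 rose and 29 fell in the Pelo cKO MEFs, and 19 of 92 rose and 33 fell in the libraries labelled Upf2 cKO. Of all genes tested, 17.4% rose and 16.7% fell in the first set, 22.9% and 21.2% in the second and 22.3% and 21.1% in the third, which are also the shares to set beside each list. In RNA the counts were 17 and 12, 36 and 2, and 5 and 9 of 93, where 12.7% and 10.4%, 15.5% and 16.6%, and 13.2% and 6.76% of all genes were called. For the ratio of footprints to mRNA they were 0 and 0 of 92 by edgeR (16 with an unadjusted p under 0.05, DESeq2 3 lower), 13 and 30 of 94, and 9 and 10 of 93, beside 0.00761% of all genes each way, 21.9% and 18.6%, and 7.60% and 10.4%. In the first of these ratios 2116 of all 13146 genes tested had an unadjusted p under 0.05.

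Of 26 folding genes tested, 2 rose and 5 fell in footprints of the Hbs1l cKO MEFs, 8 and 7 in the Pelo cKO MEFs and 5 and 10 in the libraries labelled Upf2 cKO. Plod2, the lysyl hydroxylase that favours stable cross-links, was at 322, 330 and 359 CPM in the Hbs1l cKO MEFs against 505, 569 and 524 CPM, 1.58-fold lower, and 2.39-fold and 1.48-fold lower in the other 2 sets, with no overlap in any (adjusted p = 1.07e-05, 9.1e-07 and 5.75e-05). Serpinh1, the collagen chaperone HSP47, changed by 0.10, 0.32 and 0.21 on the log2 scale and passed in the last 2, and P4ha1, a prolyl hydroxylase subunit, by 0.07, 0.09 and 0.20, passing in the last.

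Of 16 genes for processing and cross-linking, 7 rose and 5 fell in the Hbs1l cKO MEFs, 8 and 5 in the Pelo cKO MEFs and 6 and 5 in the libraries labelled Upf2 cKO. The small leucine-rich proteoglycans of fibrils, Lum and Dcn, rose in all 3. Lum was at 59.0, 40.4 and 34.2 CPM against 14.7, 11.5 and 10.2 CPM in the Hbs1l set, and its log2 changes were 1.89, 3.57 and 2.28. Dcn changed by 0.76, 1.86 and 1.46. Loxl2, which cross-links collagen and is abundant at basement membranes, fell by 0.94, 1.46 and 1.13, and its mRNA changed by -0.74, 1.02 and -0.10. Lox fell by 0.28 and 0.30 in the Hbs1l cKO and Pelo cKO MEFs and had -0.14 in the libraries labelled Upf2 cKO. Among the degrading enzymes, 3 of 16 rose and 6 fell, 7 rose and 5 fell, and 3 rose and 6 fell. Mmp2, a gelatinase, fell by 0.77, 1.15 and 0.64 in footprints, Mmp14 had -0.13, -0.08 and -0.09 and was not called, and Mmp3 rose by 1.44, 4.15 and 1.11.

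The receptors gave 1 rise and 3 falls of 10 genes, 2 and 5 of 11, and 2 and 5 of 10. Itga1, a subunit of a collagen-binding integrin, fell by 0.70, 0.69 and 0.27, Itga11 fell by 0.27 in the Pelo cKO MEFs and had -0.14 and 0.18 in the others, without a call, and Ddr2, the receptor kinase for fibrillar collagens, had 0.11, 0.10 and 0.15 and was not called. Of 24 regulators, 4 rose and 4 fell, 7 and 7, and 3 and 7. Tgfb2, a growth factor that induces matrix genes, fell by 0.87, 1.54 and 0.78 in footprints, and its mRNA changed by -0.91, 0.62 and -0.62, each past the threshold.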

How the data were processed

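Footprint files hold counts of fragments per gene, deposited by the authors, who clipped adapters with fastx_clipper, removed ribosomal RNA with bowtie2 2.2.3, aligned with hisat2 2.1.0 to mm10 (Gencode M24) and counted reads in coding sequence with featureCounts. RNA files hold estimated counts and TPM per transcript, which the authors made with kallisto 0.42.4. For tests, the transcript estimates of a gene were added up and made whole numbers; TPM were added likewise. The 100 histone-named genes were left out of the footprint and ratio fits, since footprint RNA is not selected for poly(A) and mRNA was.

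Tests used edgeR 4.0.16 (quasi-likelihood, TMM factors, default filter on low counts, Benjamini-Hochberg threshold 0.05) in R 4.3.3, and DESeq2 1.42.0 as an alternative. Other alternatives were RLE factors, no filter, a replicate block, each library left out, RNA of protein-coding transcripts alone and, chosen after seeing the data, a length offset. The steps were tested on simulated data. Against controls, values are given for the 10 main chains of types I, III, IV, V and VI and for 4 cartilage chains whatever their change, for other members past the threshold with a group mean of at least 5 CPM, and for up to 6 called genes of each list. Between genotypes or settings they are given for the members called. Lower members are named where their call against the controls is counted. The collagen family was taken up, and its members and the gene lists were chosen, with earlier results of these data known. Replicates are separate embryo pools, mice, or MEF dishes from 1 embryo each. Coding features came from Gencode M21 (GRCm38).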

Additional observations from a re-analysis of the deposited data

Results flagged for a closer look

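The change on loss of Hbs1l differed between settings for these members, by the interaction of setting and genotype in edgeR (adjusted over all genes). Between embryos and MEFs the difference in log2 change was -2.26 for Col3a1, -1.09 for Col1a1, -1.17 for Col1a2 and -0.69 for Col5a1 among the fibrillar chains, the call of Col5a1 being lost in 10 of the 12 fits without 1 library. It was -1.81 for Col6a1, -2.10 for Col6a2 and -1.87 for Col6a3 among the type VI chains, and -1.57 for Col18a1. Each of these was lower in mutant embryos than the change in mutant MEFs. The difference was -3.75 for Col9a2, -3.05 for Col16a1, -2.94 for Col15a1 and -2.87 for Col8a2, which had at most 6 fragments in any Hbs1l -/- embryo library, against 3 to 22 in the wild type, so their sizes depend on the prior count, and the call of Col8a2 was lost in 9 of the 12 fits and that of Col9a2 in 5. Between embryos and cerebella the difference was -1.67 for Col26a1, -3.12 for Col16a1 and -2.86 for Col9a2, the latter 2 with the same few fragments in embryos. The calls of Col9a2 and Col16a1 were lost in 8 of 12 fits and that of Col26a1 in 7. Setting and batch cannot be told apart.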

How the results depend on the processing

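Counts of members called by edgeR moved by more than 1.5 times under these alternatives, and the cause was not tested. In embryos 9 were called by DESeq2, 12 without the filter and 11 with the replicate block, and in cerebella 1 by DESeq2. In RNA, 11 were called with the block in Hbs1l cKO MEFs, 18 without the filter in Pelo cKO MEFs and 3 with the length offset in the libraries labelled Upf2 cKO. For footprint differences the block gave 8 (Pelo against Hbs1l) and 2 (Upf2 label against Hbs1l). For single transcripts DESeq2 called 20, 12 and 7 in the Hbs1l, Pelo and Upf2 labelled RNA, the block 0 in each, and the length offset 5 and 4 in the first 2. Leaving out each library gave ranges of 0 to 12 in embryos, 0 to 2 in cerebella, 18 to 23, 24 to 26 and 21 to 24 in MEF footprints, 11 to 19, 2 to 14 and 2 to 8 in RNA, and 0 to 0, 15 to 22 and 11 to 21 for the ratio. The ranges were 0 to 9 for embryo against cerebellum, 8 to 19 for embryo against MEF, 3 to 7, 2 to 5 and 7 to 12 between MEF footprint effects, 10 to 18, 12 to 19 and 13 to 20 between mutants in RNA, and 0 to 0, 0 to 0 and 0 to 3 for transcripts. With 2 Pelo RNA libraries, leaving 1 out assumes that the other varies like the other groups.

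Of 2818 alternative values for named members, 2556 kept their side of the threshold (91 of them changed sign, called in neither fit), 207 lost a call, 55 gained one and none of those called changed sign. Among the members called, 16 of 19, 23 of 26 and 19 of 26 kept their call in every fit without 1 library in the MEF footprint sets, 10 of 17, 2 of 10 and 2 of 5 in the RNA sets, 15 of 21 and 9 of 18 for the ratio in the Pelo and Upf2 labelled MEFs, and 0 of 5 in embryos. In the Hbs1l footprint set Col1a1 was lost without Hbs1l cKO replicate 1 or 2 or control replicate 1 or 3, Col14a1 without Hbs1l cKO replicate 1 or control replicate 1 or 3, and Col16a1 without Hbs1l cKO replicate 1 or 2 or control replicate 1. In the Pelo footprint set Col1a1 was lost without Pelo cKO replicate 1 or control replicate 1 or 3, Col12a1 also without Pelo cKO replicate 2, and Col4a6 without Pelo cKO replicate 3 or control replicate 2. In the set labelled Upf2 cKO, Col4a1 and Col19a1 were lost without mutant or control replicate 1 or 2, and Col8a1 without mutant replicate 1 or 2 or control replicate 2. Of 262 alternative values of the medians over members 25 moved by more than the spread between libraries, as did 6 of 180 chain ratios, all 6 in RNA with CPM in place of TPM. Without 1 library the median ranged from -0.38 to 0.31 in cerebella, from -0.18 to 0.18 in Hbs1l cKO RNA, from -0.05 to 0.24 for the ratio in Hbs1l cKO MEFs and from -0.31 to 0.35 for that in Pelo cKO MEFs, so its sign was not the same in every fit. To look for pairing, each library's deviations from its group mean in log2 CPM were correlated between mutant and control libraries. Those with the same number gave 0.0599 to 0.0991 in embryos, where other numbers gave -0.0697 to 0.0042. Elsewhere the same number gave -0.352 to 0.442. These values are small or mixed in sign, so the numbers were not taken to pair the samples. In embryos 20 members did not pass the filter on low counts.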
